A study of Rattus norvegicus with 4 samples.

Results

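A set of 10 genes of TGF-beta and BMP signalling were followed in cultured neonatal rat cardiomyocytes. These genes were taken by symbol from a table of 16290 genes, and were chosen with earlier results of these data known. They comprise the ligand genes Tgfb1, Tgfb2, Tgfb3, Bmp4 and Bmp10, the inhibitory SMAD genes Smad6 and Smad7, and the inhibitor-of-DNA-binding genes Id1, Id2 and Id3. All 10 had a row in the table, and 9 of them were abundant enough to be tested. The cells were rat heart muscle cells taken at postnatal day 3, grown in medium with 5% horse serum, and given an adenovirus, used here to carry a gene into the cells, that encoded Pdk3 or mock. Both groups thus received a virus, and neither was left without one. There were 2 libraries per group (Pdk3 1 and Pdk3 2, Mock 1 and Mock 2). The labels name no separate cultures or animals, and p-values therefore reflect spread between libraries that may be purely technical. Values are normalised read counts, that is reads per gene scaled between libraries by the authors and rounded to whole numbers.

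Ligands of the TGF-beta superfamily are secreted as dimers and signal through paired type I and type II serine/threonine kinase receptors. TGF-beta receptors phosphorylate SMAD2 and SMAD3, BMP receptors phosphorylate SMAD1, SMAD5 and SMAD9, and both sets act in the nucleus together with SMAD4. Smad6, Smad7 and the Id genes are classical targets of these SMADs. SMAD6 and SMAD7 then damp the pathway, and ID proteins bind basic helix-loop-helix transcription factors and keep them off DNA. In the heart, TGF-beta is known for matrix production by fibroblasts, and Bmp10 is known from the developing mouse heart as a ligand of trabecular and atrial cardiomyocytes.

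The promoters of the Id genes, of Smad7 and of Tgfb1 are shown because the first 4 are textbook SMAD targets and Tgfb1 is the ligand gene called below. Each run is the 250 bases before the gene's start, 5′ to 3′ on the gene's strand, from RefSeq on GRCr8, a later build than that of the count table. Capitals mark AGAC or its reverse complement GTCT (the core SMAD-binding letters) and GGCGCC, a GC-rich motif that SMADs of the BMP branch can bind. The windows are chr1:90324062-90324311 (plus strand) for Tgfb1, chr18:71263258-71263507 (plus strand) for Smad7, chr3:161671314-161671563 (plus strand) for Id1, chr6:47470996-47471245 (minus strand) for Id2 and chr5:153656041-153656290 (plus strand) for Id3.
Tgfb1: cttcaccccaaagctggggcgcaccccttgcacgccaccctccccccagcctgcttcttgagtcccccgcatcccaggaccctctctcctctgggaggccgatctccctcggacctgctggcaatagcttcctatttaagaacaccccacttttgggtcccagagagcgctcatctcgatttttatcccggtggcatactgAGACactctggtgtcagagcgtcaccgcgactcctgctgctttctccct
Smad7: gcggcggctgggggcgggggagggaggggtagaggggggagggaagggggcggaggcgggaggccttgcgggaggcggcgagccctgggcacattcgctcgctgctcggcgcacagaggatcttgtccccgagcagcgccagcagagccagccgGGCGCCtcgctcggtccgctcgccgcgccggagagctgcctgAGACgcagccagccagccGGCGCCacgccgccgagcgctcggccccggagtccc
Id1: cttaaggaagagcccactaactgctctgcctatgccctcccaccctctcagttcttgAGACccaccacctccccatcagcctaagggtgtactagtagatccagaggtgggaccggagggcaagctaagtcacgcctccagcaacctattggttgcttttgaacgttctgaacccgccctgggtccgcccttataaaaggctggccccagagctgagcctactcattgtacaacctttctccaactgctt
Id2: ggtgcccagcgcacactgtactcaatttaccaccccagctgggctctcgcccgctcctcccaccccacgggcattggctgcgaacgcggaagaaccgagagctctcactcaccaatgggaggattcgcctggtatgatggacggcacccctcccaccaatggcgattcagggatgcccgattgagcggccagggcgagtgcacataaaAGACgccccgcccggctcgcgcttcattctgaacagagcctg
Id3: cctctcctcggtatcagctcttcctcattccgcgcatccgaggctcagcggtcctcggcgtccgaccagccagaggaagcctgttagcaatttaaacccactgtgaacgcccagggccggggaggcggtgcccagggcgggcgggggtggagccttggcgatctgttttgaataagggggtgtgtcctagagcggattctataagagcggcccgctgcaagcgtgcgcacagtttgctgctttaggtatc

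A promoter was matched for 9 of the 10 genes. AGAC or GTCT occurred in 8 of these 9 windows, and in 84.0% of all 33469 promoters of the same length, both strands counted. GGCGCC, which reads the same on both strands, occurred in 1 of the 9, the Smad7 promoter, where it starts 96 and 36 bases before the gene's start, and in 8.69% of all promoters. The Smad7 window is 78.0% G and C, against a median of 51.2% over all promoters, and GGCGCC holds only these letters. The Id3 window holds neither motif. A match of letters is a description of the window and not a measured binding site.

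Of the 9 tested genes, 1 was lower in Pdk3 libraries (Tgfb1) and 0 were higher by limma at an adjusted p under 0.05, where 11.3% of all 12838 tested genes were lower and 11.7% higher. At an unadjusted p under 0.05 by limma there were 2, Tgfb1 and Tgfb2, where 4671 of all 12838 tested genes had such a p. The log2 fold changes of the 9 lay between -0.18 for Tgfb1 and 0.25 for Smad6, with a median of 0.03 against -0.01 over all tested genes. The central 90% of all tested genes spanned -0.45 to 0.50, so the 9 genes lie inside that span. Pdk3 itself, the gene carried by the virus, had normalised counts of 1218 and 1177 in Pdk3 libraries, against 396 and 411 in Mock libraries (log2 fold change 1.57).

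**Figure D1:**
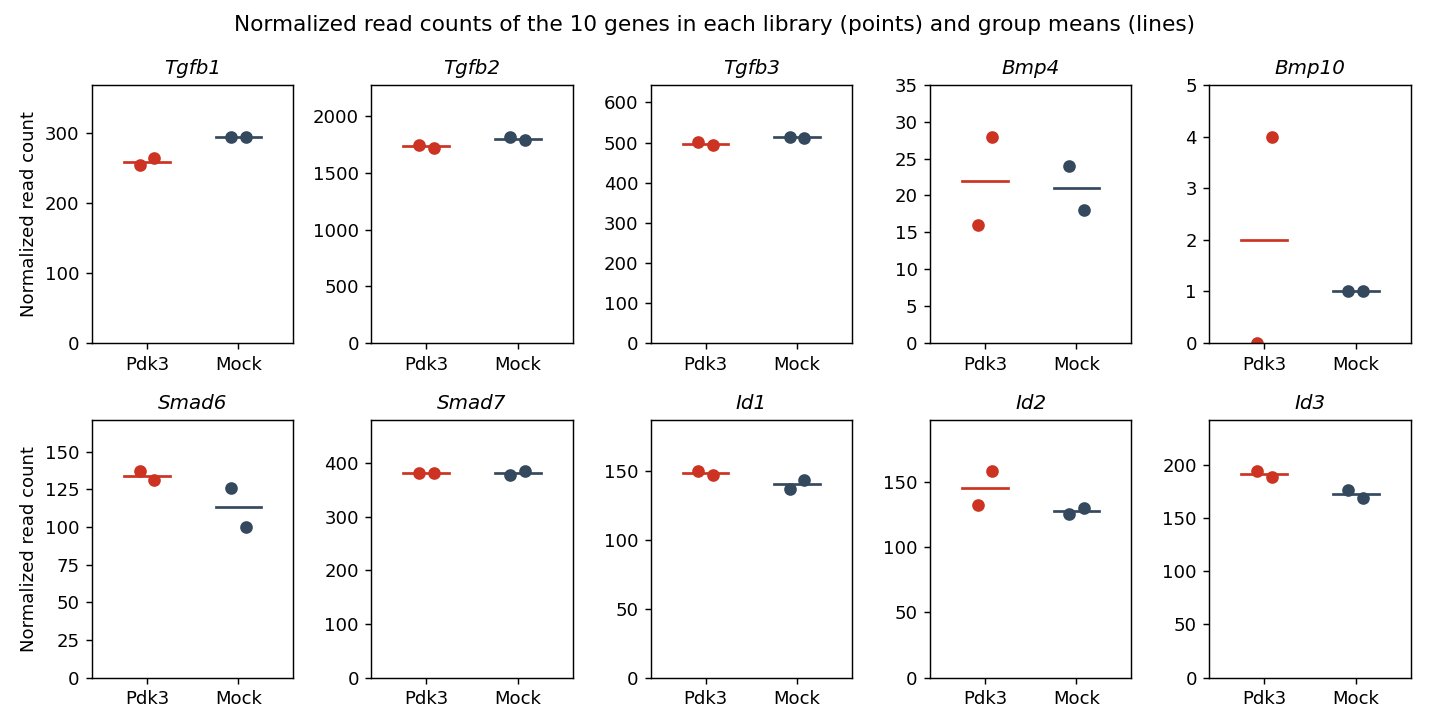
Normalised read counts (vertical axes, from 0) of the 10 genes, with 1 point per library, Pdk3 libraries left of Mock libraries, and a line at each group's mean of 2. The Tgfb1 points stand at 254 and 264 in Pdk3 libraries and at 294 and 295 in Mock libraries. Bmp4, Bmp10 and Smad7 overlap between groups, and the other 7 genes, Tgfb1 among them, do not.

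The TGF-beta ligand genes all stood slightly lower in Pdk3 libraries, and 1 of the 3 passed the test. Tgfb1 (ENSRNOG00000020652, chromosome 1, 82480195 to 82497199, plus strand, rn6), the isoform best known from wound repair and immune control, had counts of 254 and 264 in Pdk3 libraries, against 294 and 295 in Mock libraries. Both Pdk3 libraries lay under both Mock libraries. The mean was 259.0 ± 7.1 in Pdk3 libraries and 294.5 ± 0.7 in Mock libraries (SD, n = 2 each), a ratio of 0.879 and -0.18 ± 0.05 on the log2 scale (log2 fold change ± SE; limma, adjusted p = 0.0345).

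That call rests on a spread between libraries smaller than counting alone would give. Within the pairs the spread was 0.547 (Pdk3) and 0.553 (Mock) of counting noise in variance, over 10583 genes with a mean of at least 50. With p floored at counting noise, which is to say the larger of limma's p and an exact binomial p of the summed reads, the adjusted p of Tgfb1 was 0.143, and by that rule 8.38% of all tested genes were higher and 7.44% lower. By limma the adjusted p of Tgfb1 was 0.0520 with the replicate number as a block, where 1298 of 12838 tested genes were lower. It was 0.0913 without an intensity trend (2.53% of genes lower) and 0.0719 without a filter on low values (2.57% lower). Without Pdk3 1, Pdk3 2, Mock 1 or Mock 2 the log2 fold changes of Tgfb1 were -0.16, -0.21, -0.19 and -0.18. Such a fit leaves 1 library in a group, and so cannot decide whether the call holds.

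Tgfb2 (ENSRNOG00000002418, chromosome 13, 105039853 to 105141030, minus strand), the isoform needed in mice for valve and septum formation, had counts of 1749 and 1726 in Pdk3 libraries, against 1823 and 1788 in Mock libraries. Its groups did not overlap, but the difference was small, -0.06 ± 0.02 on the log2 scale (limma, adjusted p = 0.0888). Tgfb3 (ENSRNOG00000009867, chromosome 6, 109913757 to 109935533, minus strand), known in mice for palate fusion, had 501 and 493 in Pdk3 libraries, against 515 and 511 in Mock libraries. Its log2 fold change was -0.05 ± 0.03 (limma, adjusted p = 0.377), with a 95% interval of -0.12 to 0.03. When libraries were scaled to level their ribosomal protein genes, Tgfb1, Tgfb2 and Tgfb3 were all called lower, at -0.27, -0.14 and -0.13, and so were 28.8% of all tested genes.

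Bmp4 and Bmp10 were near the lower limit of these libraries. Bmp4 (ENSRNOG00000009694, chromosome 15, 20776054 to 20822740, minus strand), a ligand of early heart and outflow tract development, had counts of 16 and 28 in Pdk3 libraries, against 24 and 18 in Mock libraries. The groups overlapped fully, and the log2 fold change was 0.03 ± 0.30 (limma, adjusted p = 0.961). Its 95% interval, -0.68 to 0.74, sets what was detectable at this depth. Its sign was set by single libraries, at -0.36 without Pdk3 2, -0.17 without Mock 2, 0.41 without Pdk3 1 and 0.22 without Mock 1. Bmp10 (ENSRNOG00000009316, chromosome 4, 119225040 to 119230728, plus strand) had counts of 0 and 4 in Pdk3 libraries, against 1 and 1 in Mock libraries. It was not tested and no fold is given, since these are 4 reads in Pdk3 libraries and 2 in Mock libraries after multiplying back.

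Neither of the inhibitory SMAD genes passed limma, and a difference between their fold changes was not tested. Smad7 (ENSRNOG00000018359, chromosome 18, 71395830 to 71424157, plus strand), the feedback inhibitor of both branches, had counts of 382 and 382 in Pdk3 libraries, against 378 and 385 in Mock libraries. The Pdk3 values lay between the Mock values, and the log2 fold change was 0.00 ± 0.04 (limma, adjusted p = 0.978), with a 95% interval of -0.09 to 0.09. Smad6 (ENSRNOG00000009173, chromosome 8, 68898296 to 68966108, minus strand), which mainly restrains BMP signalling, had 137 and 131 in Pdk3 libraries, against 126 and 100 in Mock libraries. Its groups did not overlap, yet its log2 fold change of 0.25 ± 0.12 did not pass (limma, adjusted p = 0.167). The 95% interval was -0.02 to 0.53, overlapping that of Smad7, and Mock 2 carried much of the Smad6 difference. Without Mock 2 the difference was 0.09, and without Mock 1 it was 0.42.

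The Id genes all stood slightly higher in Pdk3 libraries, and 0 of the 3 passed limma, with 0 also at an unadjusted p under 0.05. Id1 (ENSRNOG00000021750, chromosome 3, 148215540 to 148216718, plus strand) had counts of 150 and 147 in Pdk3 libraries, against 137 and 144 in Mock libraries, at 0.08 ± 0.08 on the log2 scale (limma, adjusted p = 0.489). Id2 (ENSRNOG00000007237, chromosome 6, 44348501 to 44363915, minus strand) had 132 and 158 in Pdk3 libraries, against 125 and 130 in Mock libraries, at 0.18 ± 0.10 (limma, adjusted p = 0.249). Its single high library was Pdk3 2, and without it the log2 fold change was 0.05, against 0.31 without Pdk3 1. Id3 (ENSRNOG00000026124, chromosome 5, 154489590 to 154491223, plus strand) had 194 and 189 in Pdk3 libraries, against 176 and 169 in Mock libraries, at 0.15 ± 0.07 (limma, adjusted p = 0.141). For Id1, Id2 and Id3 both Pdk3 libraries lay above both Mock libraries.

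Groups that do not overlap were common in these data. They did not overlap for 7 of the 9 tested genes (4 higher and 3 lower in Pdk3 libraries), and for 61% of all tested genes, 29.9% higher and 31.1% lower. Scaled to ribosomal protein genes, Id1 stood at -0.01, Id2 at 0.09 and Id3 at 0.06.

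**Figure D2:**
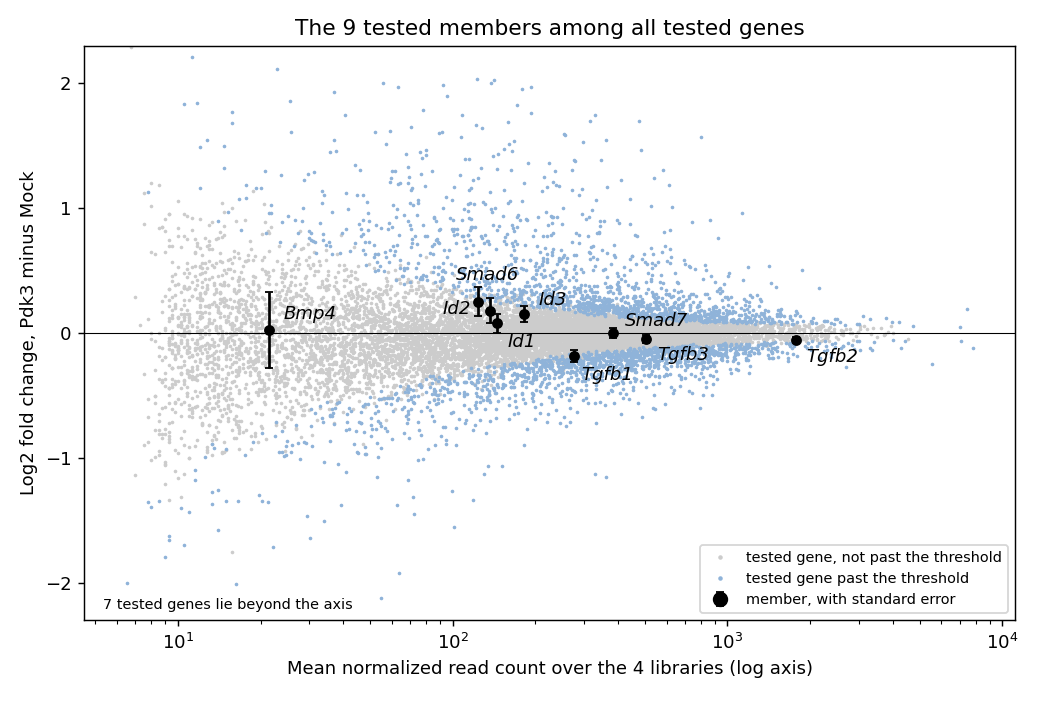
Log2 fold change of Pdk3 over Mock (vertical axis) against the mean normalised count (horizontal log axis) for all tested genes, with the 9 tested members in black and their standard errors as bars. The members lie between -0.18 (Tgfb1) and 0.25 (Smad6), and the longest bar belongs to Bmp4, the least abundant of them.

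Elsewhere in the pathway, genes changed in both directions. The deposited table annotates 70 genes with the TGF-beta signaling pathway term, 9 of the 10 members among them. Of its 54 other tested genes, 6 were higher and 9 lower in Pdk3 libraries (27.8% called, against 22.9% of all tested genes), and 3 and 6 with p floored at counting noise (15.8% of all tested genes by that rule). Their median log2 fold change was 0.01. The term's largest change, named after its value was seen, was that of Rbl1, a pocket protein gene of the cell cycle, which rose to 301 and 297 in Pdk3 libraries, against 165 and 146 in Mock libraries (0.94 ± 0.07, limma, adjusted p = 0.000153). Tfdp1, encoding a partner of E2F factors and also named afterwards, rose by 0.36 on the log2 scale. Scaled to ribosomal protein genes, 3 of the term's 63 tested genes were higher and 21 lower, where all tested genes gave 928 and 3691. The groups below are lists by role, and the p-values are limma's, adjusted over all genes tested. Of all tested genes 11.7% were higher and 11.3% lower by limma, 8.38% and 7.44% when floored, and 28.8% lower under ribosomal scaling. With any 1 library left out limma called 0 of the genes named here, with 1 residual degree of freedom.

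Among 11 tested receptor genes, 1 was higher and 3 were lower, 0 and 2 when floored, and 0 and 5 under ribosomal scaling. That is 36.4% called by limma, against 22.9% of all tested genes. Tgfbr3, encoding betaglycan, a coreceptor that presents TGF-beta2, fell to 731 and 693 in Pdk3 libraries, against 959 and 966 in Mock libraries (log2 fold change -0.43 ± 0.03, adjusted p = 0.000134). Tgfbr2, the type II receptor of all 3 TGF-beta isoforms, fell to 392 and 384, against 486 and 468 in Mock libraries (-0.30 ± 0.04, adjusted p = 0.00204). Both genes had no overlap between groups, which was so for 61% of all tested genes, and kept their calls when floored. Without an intensity trend the limma adjusted p was 0.0353 for Tgfbr3 and 0.0511 for Tgfbr2, so the Tgfbr2 call ended. Acvr1, a type I receptor for BMPs (0.15), and Acvr1b, the type I activin receptor (-0.10), also passed limma, with floored adjusted p of 0.142 and 0.196.

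Of the 5 tested genes for signalling SMADs, 2 were lower and 0 higher by limma, against 3 and 1 at an unadjusted p under 0.05, and 3 and 0 under ribosomal scaling. Smad1, of the BMP branch, fell to 406 and 429 in Pdk3 libraries, against 473 and 494 in Mock libraries (log2 fold change -0.21 ± 0.04, adjusted p = 0.0132). Smad3, of the TGF-beta branch, was at -0.17 (adjusted p = 0.0340, and 0.0912 floored). Among 14 intracellular and membrane regulators, 2 were higher and 3 lower, 0 and 3 when floored, and 0 and 5 under ribosomal scaling. Limma called 35.7% of these regulators, against 22.9% of all tested genes. Tgif1, a corepressor of SMAD2 and SMAD3, fell to 111 and 114 in Pdk3 libraries, against 160 and 158 in Mock libraries (-0.50 ± 0.08, adjusted p = 0.00384). Ldlrad4, a membrane inhibitor of TGF-beta signalling, and Nedd4l, a ubiquitin ligase that acts on SMADs, fell by 0.27 and 0.19 on the log2 scale. Fkbp1a, which binds type I receptors, and Usp15, a deubiquitinase of the pathway, were at 0.14 and 0.09, with floored adjusted p of 0.0567 and 0.227.

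Extracellular binders of the ligands moved in both directions, 2 higher and 2 lower among 8 tested genes, 1 and 2 when floored, and 1 and 3 when scaled to ribosomal protein genes. Fst, encoding follistatin, which traps activins, fell to 45 and 54 in Pdk3 libraries, against 83 and 96 in Mock libraries (ratio 0.553, log2 fold change -0.84 ± 0.14, adjusted p = 0.00564). Dcn, a matrix proteoglycan that binds TGF-beta, fell by 0.31 on the log2 scale. In the other direction Nbl1, a BMP antagonist of the DAN family, rose to 252 and 250 in Pdk3 libraries, against 203 and 190 in Mock libraries (0.35 ± 0.06, adjusted p = 0.00574). Twsg1, which binds BMPs together with chordin, was at 0.13 (adjusted p = 0.0216, and 0.0831 floored).

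Among 16 genes of latent storage and activation, 2 were higher and 5 lower, 2 and 3 when floored, and 1 and 10 under ribosomal scaling. Limma called 43.8% of them, against 22.9% of all tested genes, and 28.8% of all tested genes were lower under ribosomal scaling. The integrin genes Itgb6 and Itgb8, whose products pair with the alpha v subunit and release active TGF-beta from its latent complex, both fell. Itgb6 had 158 and 137 in Pdk3 libraries, against 226 and 201 in Mock libraries (log2 fold change -0.53 ± 0.09, adjusted p = 0.00638), and Itgb8 had 87 and 95, against 137 and 122 in Mock libraries (-0.50 ± 0.10, adjusted p = 0.0119). Emilin1, a matrix protein that restrains the processing of pro-TGF-beta1 in mice, fell to 971 and 981 in Pdk3 libraries, against 1194 and 1205 in Mock libraries (-0.30 ± 0.02, adjusted p = 0.000164). Pcsk6, a proprotein convertase that cleaves ligands of this superfamily, rose to 651 and 676, against 525 and 541 in Mock libraries (0.32 ± 0.04, adjusted p = 0.000886), and Itgb5 was at 0.11. Ltbp3, encoding a latent TGF-beta binding protein, was at -0.09 (adjusted p = 0.0298, and 0.179 floored).

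Of 12 other tested ligand genes, 2 were higher and 1 lower, and 0 and 0 when floored. Inha and Bmp7 were at 0.16 and 0.15 and Bmp6 at -0.42 on the log2 scale, with adjusted p of 0.0189, 0.0379 and 0.0449 by limma and of 0.0921, 0.0776 and 0.0900 when floored. Under the scaling to ribosomal protein genes the counts were 0 higher and 4 lower.

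**Figure D3:**
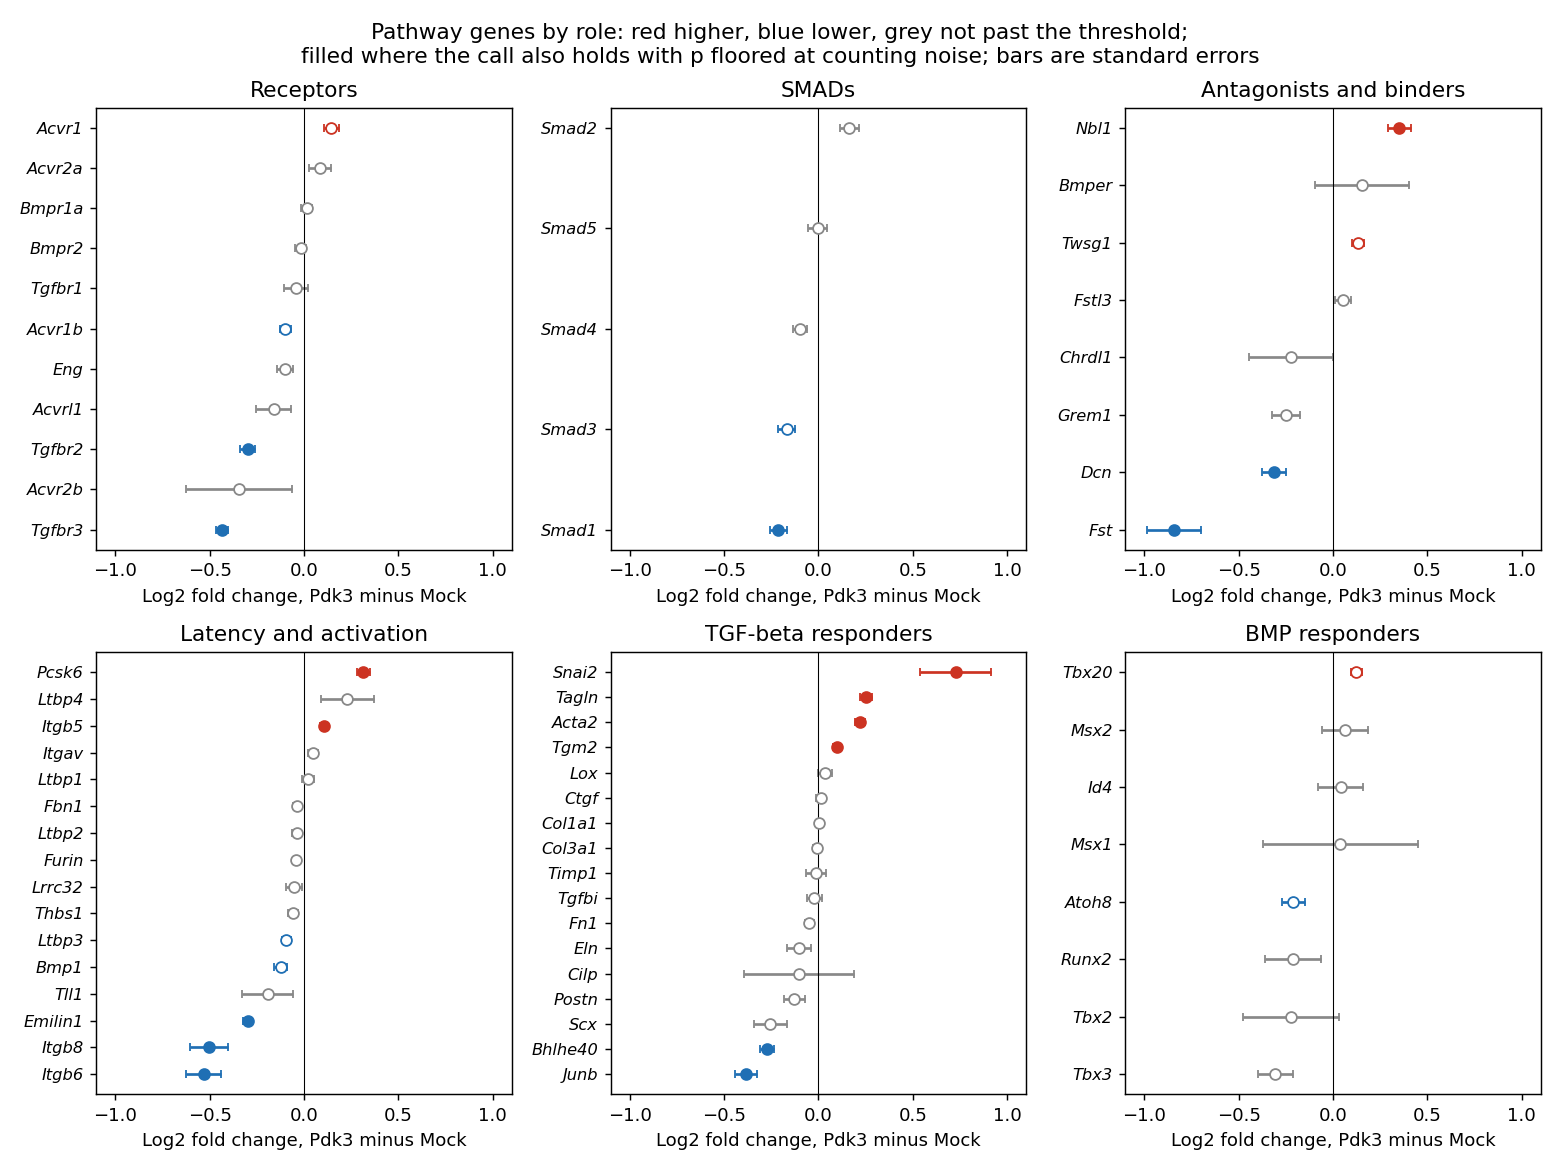
Log2 fold changes of Pdk3 over Mock (horizontal axes) with standard errors for the tested genes of 6 lists by role, red where higher, blue where lower and grey where limma did not call them. Filled points kept their call with p floored at counting noise, and the most negative value is that of Fst (-0.84).

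Genes known to respond to TGF-beta in other cells did not move one way, with 4 of 17 tested higher and 2 lower, all 6 also when floored. These 6 are 35.3% of the list, where 22.9% of all tested genes were called, and 15.8% when floored. The higher ones were the smooth muscle genes Acta2 (982 and 955 in Pdk3 libraries, against 831 and 831 in Mock libraries, log2 fold change 0.22 ± 0.03, adjusted p = 0.00129) and Tagln (0.25 ± 0.03, adjusted p = 0.00183), the transglutaminase gene Tgm2 (0.10) and Snai2, a repressor of epithelial genes (0.73 ± 0.19, adjusted p = 0.0296). The lower ones were Junb, an AP-1 factor gene (267 and 245 in Pdk3 libraries, against 342 and 327 in Mock libraries, -0.39 ± 0.06, adjusted p = 0.00343), and Bhlhe40, a helix-loop-helix repressor (-0.27 ± 0.04, adjusted p = 0.00259). The list's median was -0.01, equal at 2 decimals to that of all tested genes, and scaling to ribosomal protein genes gave 3 higher and 8 lower.

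Genes known to respond to BMP, apart from the Id genes above, had 1 of 8 tested higher and 1 lower, 0 and 0 when floored, and 0 and 2 under ribosomal scaling. Tbx20, a cardiac T-box factor gene, was at 0.12 and Atoh8, a helix-loop-helix factor gene, at -0.21 on the log2 scale (adjusted p = 0.0201 and 0.0450 by limma, 0.0717 and 0.120 floored). Of the 3 class I helix-loop-helix factors that ID proteins bind, 1 passed, and under ribosomal scaling 1 was higher and 1 lower. Tcf3, which encodes E12 and E47, rose to 400 and 399 in Pdk3 libraries, against 334 and 328 in Mock libraries (0.27 ± 0.04, adjusted p = 0.00339).

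Markers of several cell types were present, and some of them differed between the groups, where 22.9% of all tested genes were called. The cardiomyocyte markers were all detected, with Myh6 at 4127 and 4040 in Pdk3 libraries, against 3865 and 3806 in Mock libraries, and 4 of 8 were higher and 1 lower (0 and 1 when scaled to ribosomal protein genes). Of 9 macrophage markers 0 were higher and 4 lower, and their summed count was 1243 to 1301 in Pdk3 libraries, against 1492 to 1583 in Mock libraries. Of 8 endothelial markers 0 were higher and 2 lower (Cdh5 at -0.52 and Tie1 at -0.39), with sums of 1054 to 1093 in Pdk3 libraries, against 1134 to 1197 in Mock libraries. Of 7 smooth muscle and pericyte markers, a list that shares Acta2 and Tagln with the responders, 4 were higher and 0 lower, with sums of 5269 to 5335 in Pdk3 libraries, against 4709 to 4745 in Mock libraries. Of 7 fibroblast markers 0 were higher and 1 lower, Dcn, with sums of 5265 to 5416 in Pdk3 libraries, against 5416 to 5484 in Mock libraries. Of 5 tested epicardial markers 0 were higher and 1 lower, Krt19 (-0.97), with sums over all 6 of 289 to 320 in Pdk3 libraries, against 337 to 355 in Mock libraries. The 1 call among fibroblast markers is 14.3% of them, the 2 among endothelial markers 25%, and the median log2 fold change of the epicardial list was 0.09. Under ribosomal scaling the counts higher and lower were 0 and 8 for macrophage, 0 and 3 for endothelial, 4 and 1 for smooth muscle, 0 and 5 for fibroblast and 0 and 2 for epicardial markers. At an unadjusted p under 0.05 by limma the counts higher and lower were 0 and 6 for macrophage, 0 and 2 for fibroblast and 0 and 2 for epicardial markers. They were 1 and 3 for endothelial, 4 and 0 for smooth muscle and 6 and 1 for cardiomyocyte markers. Of all 12838 tested genes, 4671 had such a p. No marker in the table was at 0 in all 4 libraries. In bulk RNA fewer cells of a type and less RNA per cell cannot be told apart, and the part of these cell types in the values of Tgfb1, its receptors and the integrins was not tested.

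**Figure D4:**
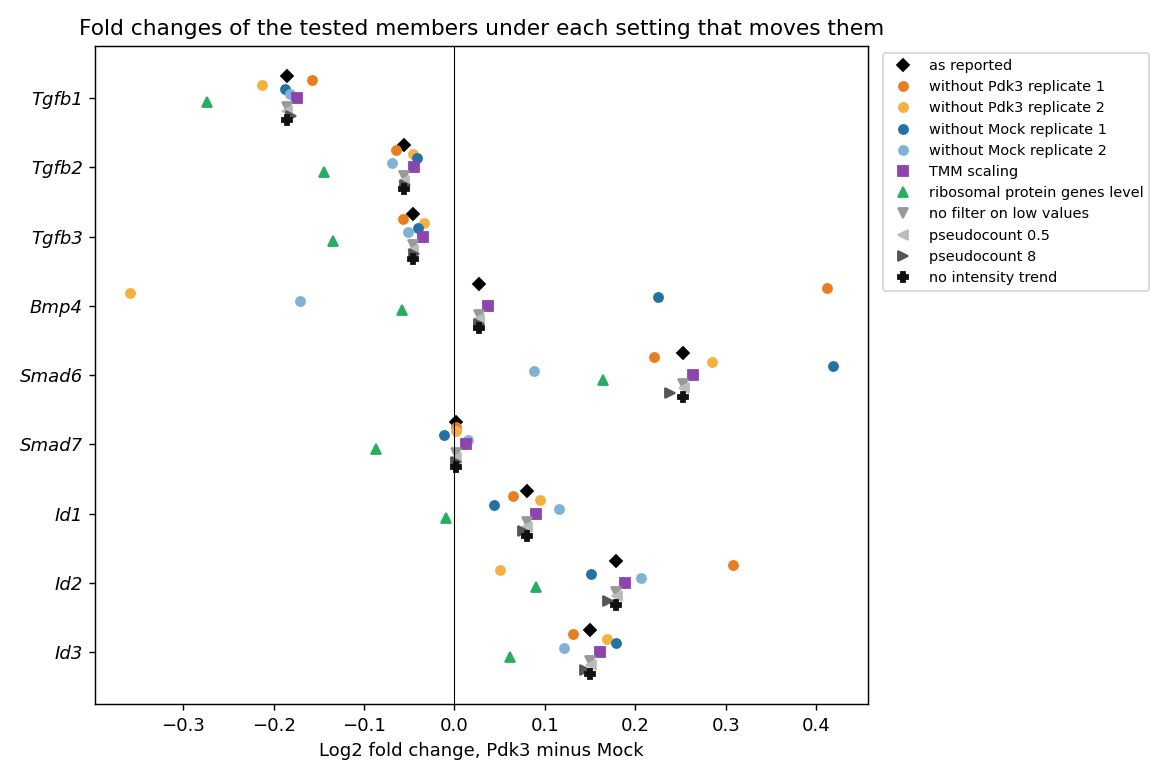
Log2 fold changes of Pdk3 over Mock (horizontal axis) of the 9 tested members, with the reported value as a black diamond. All alternatives are shown except the replicate block and the floor at counting noise. Dropping the filter or the intensity trend leaves these fold changes as reported by construction. Leaving out a library moves Bmp4 across 0, between -0.36 and 0.41, while Tgfb1 lies between -0.21 and -0.16 with a library left out.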

How the data were processed

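RNA of 2 Pdk3 and 2 Mock libraries was sequenced. Per the labels' protocols, 1 µg of total RNA went into a stranded mRNA library. Build rn6, DESeq2 1.26.0, featureCounts 1.6.5 (Subread), STAR 2.6.1d, Trimmomatic 0.39 and FastQC are listed, without settings, per the submitters' processing notes. How strand and duplicates were handled is not given in the sources used here. The authors deposited a table that is used as a score, since its values are read counts normalised between libraries and rounded to whole numbers. Totals were 4476649 and 4470251 (Pdk3) and 4448199 and 4454567 (Mock). Steps left by rounding gave scaling factors of 0.9246 to 1.0567 and about 4139000 to 4707000 reads in genes per library, and the counting noise and read counts given rest on these.

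Log2(value + 1) was fitted with limma 3.58.1 in R 4.3.3 (intensity trend, group as the single term), for the 12838 genes that reached 10 in 2 or more libraries. Two-sided p-values were adjusted by Benjamini-Hochberg, and calls were made at 0.05. Fold changes on this scale understate the change of low genes. The model was tested on simulated data. Errors cover counting at best, and the spread within the pairs was below counting noise, as given above. Reads carried no molecular identifiers. The alternatives tried were TMM scaling, a replicate block, leaving out each library, ribosomal protein genes set level (54 genes), no filter, pseudocounts of 0.5 and 8, no trend and a floor at counting noise.

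Named genes are the members, Pdk3, and up to 4 genes per list and direction by smallest p. Members and lists were chosen with earlier results of these data known. Ctgf stands for the listed Ccn2, and Rbl1 and Tfdp1 are named outside the rule. Of the listed genes, Gdf2, Gdf3, Gdf5, Smad9, Nog, Sostdc1, Col1a2 and Pecam1 were not analysed here. A few other genes of these lists are not reported here.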

Additional observations from a re-analysis of the deposited data

How the results depend on the processing

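As reported, 1496 genes were higher and 1449 lower in Pdk3 libraries, and of the 9 tested members 0 were higher and 1 (Tgfb1) lower. No member was called higher under any alternative run. The lower member was called with TMM scaling and with pseudocounts of 0.5 and 8. The count was 0 with the replicate block (Tgfb1 adjusted p = 0.0520), without a filter on low values (0.0719), without an intensity trend (0.0913) and with p floored at counting noise (0.143), and it was 3 with ribosomal protein genes level. Over all genes, the counts higher and lower were 558 and 418 without a filter, 526 and 325 without a trend, 928 and 3691 with ribosomal protein genes level, and 1076 and 955 when floored. With the replicate block they were 1374 and 1298; the numbers are not stated to pair libraries, and the replicate differences of the groups correlated at 0.00 across genes. With each library left out, the counts ranged from 0 to 0 for genes higher, genes lower and members lower (limma, 1 residual degree of freedom), with 2918 to 3330 genes at an unadjusted p under 0.05. The cause of these changes was not tested.

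Signs turned with a library left out for Bmp4, which ranged from -0.358 to 0.412 (below 0 without Pdk3 2 and without Mock 2), and for Smad7, from -0.0113 to 0.0151 (below 0 without Mock 1). With ribosomal protein genes level, which moves the median gene from -0.01 to -0.10, they turned for Bmp4 (-0.0582), Smad7 (-0.0872), Id1 (-0.00910) and Usp15 (-0.00103). Of the 49 called genes named, the call ended for 14 when floored, 5 with the block, 1 with TMM scaling, 12 with ribosomal protein genes level (and 1 turned), 39 without a trend and 36 without a filter. Depth limits Bmp4 and Bmp10 most.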
